A study of Oryza sativa Japonica Group with 49 samples.

Results

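Seedlings of the japonica rice varieties Dongjin (DJ) and Zhonghua 11 (ZH11) at the stage of 4 leaves, grown without stress, differed at 9422 of 24500 genes tested. The 6 RNA-seq libraries compared were the 3 labelled as DJ seedlings and the 3 labelled as ZH11 seedlings under normal conditions, out of 19 libraries of the stress experiment and 49 samples in the whole series. Both varieties were unmodified wild-type plants raised in pots, with seedlings pooled within each library, and neither was given drought or heat. The 3 DJ and 3 ZH11 seedling libraries sampled after drought, which lasted 7 days by the labels and longer in DJ than in ZH11 by the study's list of samples, serve here as a second look. They are used to ask whether a difference seen without stress was also present, or was changed, in other plants of the same varieties. Every difference is given as DJ minus ZH11, so that a positive log2 fold change means a higher level in DJ.

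DJ and ZH11 are both widely used as recipients for rice transformation, and the mutant and transgenic lines of the study were made in these backgrounds. Cultivars of 1 subspecies are known to differ in intracellular immune receptors of the NB-LRR type, which recognise pathogen proteins and often lie in clusters that vary between genomes. Downstream of recognition, rice makes pathogenesis-related (PR) proteins, such as chitinases and glucanases, and diterpenoid phytoalexins, which are antimicrobial compounds made from geranylgeranyl diphosphate by 2 successive cyclases and then cytochromes P450. In a green leaf the most abundant transcripts encode the enzymes of photosynthesis, photorespiration and nitrogen assimilation, whereas growing and vascular tissue carries more transcripts for ribosomes and secondary cell walls.

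The 6 libraries were similar in depth once the value of a count was known. Low values in the table were most often 4 in the ZH11 libraries and 2 in the DJ libraries, so that a sequenced read pair was worth 4 counts in ZH11 and 2 in DJ. The totals of 88536976 to 117202626 counts in ZH11 and 41956554 to 59873534 counts in DJ therefore stood for 22134244 to 29300656 and 20978277 to 29936767 read pairs. Variety and counts per read pair cannot be told apart under normal conditions, whereas all 6 drought libraries had 2 counts per pair. In ZH11 the 10 most abundant genes took 7.94% to 8.96% of all counts, against 5.14% to 5.73% in DJ. Levels below are CPM, counts per 1000000 counts of the library, with library totals scaled by the trimmed mean of M values (TMM), called normalised CPM. The TMM factors were 0.825 to 0.878 in ZH11 and 1.14 to 1.20 in DJ. Within a group, log2 CPM values (prior count 2) of any 2 libraries correlated at 0.980 to 0.988 across genes, and no 2 libraries were alike within sampling noise, with a chi-square per degree of freedom of 4.09 or more. The methods describe the libraries of a group as repeats of the treatment, each from pooled seedlings, and do not say whether the repeats were separate plantings, so p-values measure the spread between these libraries.

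A gene was called different when its edgeR quasi-likelihood test gave an adjusted p under 0.05 and its fold change exceeded 2. By this rule 6026 genes were higher in DJ and 3396 were lower, which is 38.5% of the genes tested, 24.6% in the first direction and 13.9% in the second. The median log2 fold change over all genes tested was 0.07. The libraries of the varieties did not overlap at 18946 genes, or 77.3%, so lack of overlap alone says little here. Detected genes were counted on CPM without TMM scaling. A library of DJ had 20192 to 20714 genes at 1 CPM or more, 20469 ± 263 (SD, n = 3), and a library of ZH11 had 18210 to 18390, 18310 ± 91.8 (SD, n = 3). The difference of 2159 genes gave an exact two-sided permutation p of 0.1, the smallest that 3 against 3 libraries allow. Under drought, where the same rule called 8767 of 24134 genes or 36.3%, with 14.4% higher and 21.9% lower in DJ, the order was the other way, with 19095 ± 111 genes in DJ and 20826 ± 503 in ZH11. The TMM factors were the other way too, at 0.853 to 0.924 in DJ and 1.12 to 1.14 in ZH11. A cut of 1 CPM without scaling thus lay at different normalised levels in the 2 varieties, and its part in these counts was not tested.

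Gene names and descriptions came from the tables of the study, which hold 5054 of the gene models, 4189 of them tested. These tables list mostly genes that responded to stress or to loss of ONAC023 in the study's own samples. Of the annotated genes tested, 53.4% were called, 36.9% higher and 16.5% lower in DJ, with a median log2 fold change of 0.46. Counts for a gene list are to be read against these shares rather than against those of all genes. The plot of called members by list sets the lists side by side.

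**Figure D1:**
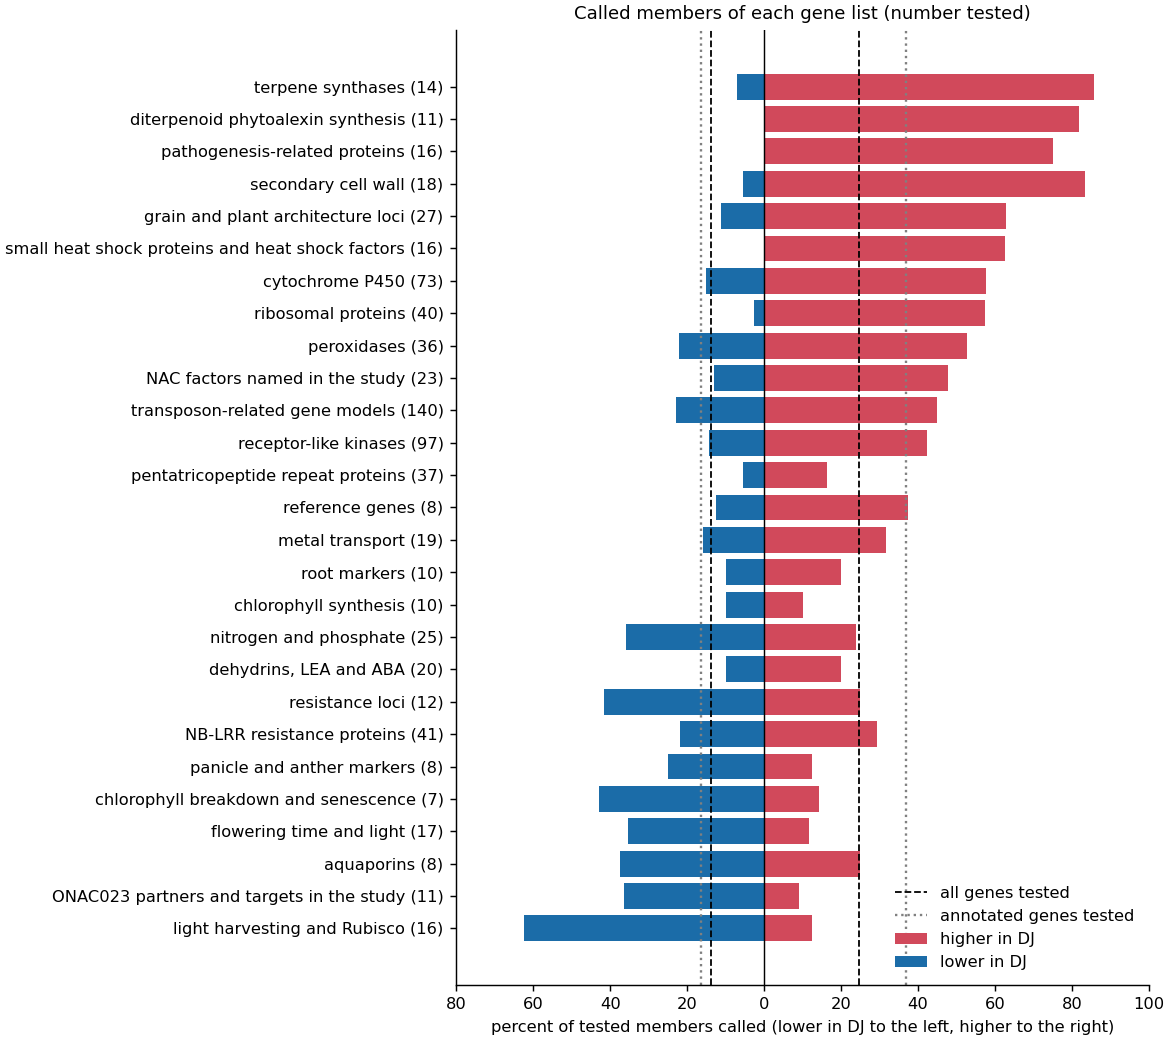
Percent of the tested members of each gene list with at least 7 of them called higher (right) or lower (left) in DJ under normal conditions, with the number tested after each name and the lists ordered by median log2 fold change. Dashed lines mark the shares over all genes tested (24.6% and 13.9%) and dotted lines those over annotated genes (36.9% and 16.5%); terpene synthases, phytoalexin, PR protein and secondary wall genes stand at the top, and light harvesting and Rubisco genes at the bottom.

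Leaf photosynthesis and photorespiration transcripts were lower in DJ. Of the 16 genes on the light harvesting, Rubisco and photorespiration list, all tested, 10 were lower in DJ, 2 were higher and 4 were not called, with a median log2 fold change of -1.35. OsCA1, a carbonic anhydrase, was at 4856, 5181 and 3598 normalised CPM in the 3 ZH11 libraries and at 1261, 772 and 1119.7 in the 3 DJ libraries. OsHPR1, the peroxisomal hydroxypyruvate reductase of photorespiration, was at 2254, 2209 and 1952 in ZH11 and at 442, 380.1 and 407 in DJ. For both genes every ZH11 library was above every DJ library, and the log2 fold changes were -2.11 ± 0.21 (SE, edgeR adjusted p = 5e-05) and -2.38 ± 0.11 (adjusted p = 1.1e-06).

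Other photorespiratory genes were lower in DJ too. OsSHM1, a serine hydroxymethyltransferase, was -2.39 ± 0.12 on the log2 scale, OsGDCH, the H protein of glycine decarboxylase, was -2.12 ± 0.16, and the glycolate oxidase GLO1 was -1.55 ± 0.12, with edgeR adjusted p values of 1.5e-06, 1.1e-05 and 1.1e-05. The summed level of the 16 genes was 36250.0 to 49137 normalised CPM in ZH11 against 14473 to 19411 in DJ. One of the 2 higher genes was psbS2, which encodes a PsbS protein of photoprotection, at 50.6, 44.8 and 66.8 in ZH11 and 191, 143 and 172 in DJ, a log2 fold change of 1.64 ± 0.16. In RNA from whole tissue, fewer cells of a type and less RNA per cell cannot be told apart. Near-identical family members such as the Rubisco small subunits share reads in part, and how the counting split them is not given in the sources used here.

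All 10 photosynthesis and photorespiration genes that were lower in DJ without stress were also called lower in DJ under drought. They stayed so without library 2 of ZH11 under drought, which was the highest of its group for 11 of the 16 genes on the list. Of all 16 genes on the list, 12 were called lower in DJ under drought and 2 higher. OsHPR1 differed by -2.40 ± 0.21 on the log2 scale under drought and OsSHM1 by -2.10 ± 0.14. The interaction test, which asks whether the variety difference itself changed between the conditions and called 12461 of 25754 genes or 48.4%, gave edgeR adjusted p values of 0.6 and 0.042 with log2 differences of 0.15 and 0.46, under the fold threshold in both cases. Here and below, this test reuses the libraries without stress, by whose p values most named genes were chosen.

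The nitrogen and phosphate genes were called in both directions. Of 25 tested genes on the nitrogen and phosphate list, 9 were lower in DJ, 6 were higher and 10 were not called, and the median log2 fold change was -0.18, or -0.72 on counts scaled to read pairs. Among the lower genes were a pair of the plastid's nitrogen assimilation. OsFd-GOGAT, the ferredoxin-dependent glutamate synthase, was at 5767, 5646 and 6276 normalised CPM in ZH11 and at 971, 801 and 926 in DJ. OsGS2, the plastid glutamine synthetase that works with it, was at 2408, 2291 and 2119.9 and 489, 383 and 456. Neither gene overlapped between the varieties, and their log2 fold changes were -2.71 ± 0.12 (edgeR adjusted p = 1.1e-06) and -2.36 ± 0.12 (adjusted p = 1.7e-06). Both were also lower in DJ under drought, by log2 fold changes of -1.71 and -2.46.

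Phosphate genes of the same list split by condition. The plastid phosphate transporter OsPHT2;1 was at 128, 136 and 116 in ZH11 and 28.9, 26.5 and 26.3 in DJ, a log2 fold change of -2.22 ± 0.09, and it stayed lower in DJ under drought at -2.59. OsSPX-MFS1 and OsSPX-MFS3, which belong to a family of vacuolar phosphate transporters, were lower in DJ without stress at -2.44 ± 0.11 and -1.74 ± 0.11, but higher in DJ under drought at 1.93 and 1.58. For these 2 genes the change of the variety difference passed the interaction test at edgeR adjusted p values of 1.5e-07 and 9.6e-07. Pho2, counted on this list at -1.34 ± 0.11, is described in the tables as an alpha-glucan phosphorylase and is not a phosphate gene. OsGBSSII, the granule-bound starch synthase of leaves, was at 967, 962 and 1026 in ZH11 and 90.8, 74.3 and 97.3 in DJ, a log2 fold change of -3.49 ± 0.12.

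Of the 10 chlorophyll synthesis genes tested, 8 were not called. OsPORA, a protochlorophyllide oxidoreductase, was higher in DJ, at 115, 106 and 142 against 14.8, 13.3 and 9.4 in ZH11 (3.28 ± 0.19, edgeR adjusted p = 2.7e-06), and OsCHLH, a subunit of magnesium chelatase, was lower at -1.19 ± 0.16. Among 7 genes of chlorophyll breakdown and senescence, 3 were lower and 1 was higher in DJ. NYC1, a chlorophyll b reductase, was at 927, 1058 and 875 in ZH11 and 289.8, 299 and 301 in DJ. OsSAG12-2, a senescence-associated protease gene, was lower as well at -2.38 ± 0.20, whereas OsNAP, a NAC factor of leaf senescence, was higher at 1.33 ± 0.12. The log2 fold change of NYC1 was -1.68 ± 0.09 (edgeR adjusted p = 2.5e-06).

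**Figure D2:**
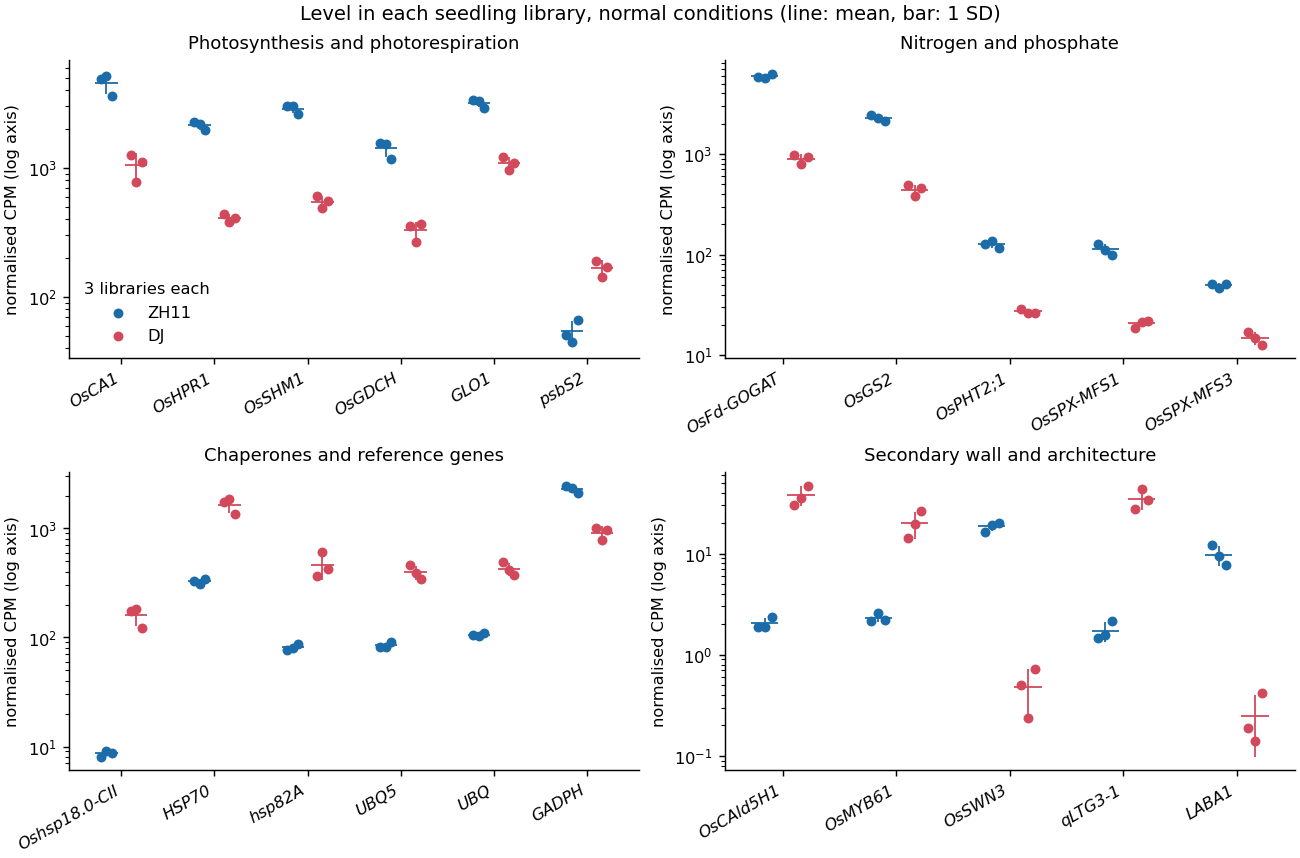
Normalised CPM on a log axis in each of the 3 ZH11 (blue) and 3 DJ (red) seedling libraries without stress for genes of 4 groups, with the mean as a line and 1 SD as a bar. In each gene shown the 3 libraries of one variety lie wholly above the 3 of the other; photosynthesis, photorespiration and nitrogen genes are higher in ZH11 apart from psbS2, and chaperone, ubiquitin, wall and architecture genes are higher in DJ apart from GADPH, OsSWN3 and LABA1.

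Chaperones were higher in DJ although neither variety had been heated. Of 16 small heat shock protein, chaperone and heat shock factor genes tested, 10 were higher in DJ, 6 were not called and 0 were lower, and the list had a median of 1.47 on the log2 scale. The cytosolic small heat shock protein gene Oshsp18.0-CII was at 174, 182 and 122 normalised CPM in DJ and at 8.06, 9.1 and 8.81 in ZH11, a log2 fold change of 4.20 ± 0.17 (edgeR adjusted p = 8.2e-07). HSP70 stood at 1756, 1856 and 1358 in DJ and 330.3, 309 and 345 in ZH11 (2.34 ± 0.13), and hsp82A, a member of the HSP90 class, at 367, 613 and 421 and 77.6, 79.3 and 87.6 (2.52 ± 0.19). In all 3 genes the DJ libraries were the high ones without overlap.

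Oshsp18.0, a member of this group at a lower level, was spread among the DJ libraries. It was at 14.3, 10.7 and 4.91 in DJ, library 3 being the lowest, against 0.818, 1.62 and 1.06 in ZH11. The DnaK family chaperone gene OsctHSP70-1 differed by 2.63 ± 0.21 and OsHSP17.7 by 1.27 ± 0.18. Under drought 14 of the 16 genes on the list were called higher in DJ and 0 lower, with a median over the list of 2.69. Of the 10 genes higher in DJ without stress, 9 were also higher in DJ under drought. HSP70 was the exception, with -0.67 under drought and an interaction at edgeR adjusted p = 4.7e-07.

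Ribosomal protein genes were higher in DJ as well. Among 40 tested, 23 were higher, 1 was lower and 16 were not called, and the median log2 fold change was 1.29. A 40S ribosomal protein S6 gene, LOC_Os07g42950, was at 299, 234 and 216 in DJ and 34.5, 33.5 and 39.3 in ZH11 (2.80 ± 0.14, edgeR adjusted p = 1.5e-06), and a 40S ribosomal protein S5 gene, LOC_Os01g01060, was at 151, 122 and 113 and 19.3, 20.6 and 20.9. RACK1B, a WD-repeat protein of the small ribosomal subunit, was higher at 2.08 ± 0.09. Of the 23 genes, only LOC_Os06g25294, a 60S ribosomal protein L18a gene with a log2 fold change of 3.00, was also called higher in DJ under drought (2.71), and 3 were called lower there. The number called lower was 8 without DJ drought library 1, 5 and 6 without ZH11 drought libraries 1 and 3, and 2 without any other. Ribosomal proteins are encoded by small families of similar genes, so the split of reads within a family is uncertain.

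Genes often used as internal standards were called about as often as annotated genes at large (53.4%). Of 8 reference genes, 3 were higher in DJ, 1 was lower and 4 were not called, the last with log2 fold changes from -0.65 to 0.96. UBQ was at 488, 414 and 373 in DJ and 105, 103 and 109.8 in ZH11 (2.01 ± 0.11), and UBQ5, which encodes ubiquitin fused to a ribosomal protein, at 460.4, 388 and 344 and 81.8, 82.6 and 90 (2.23 ± 0.12). The tubulin gene OsTubA1 differed by 1.28 ± 0.12 and GADPH, as the tables spell a glyceraldehyde-3-phosphate dehydrogenase gene, by -1.33 ± 0.13. These 4 directions were the same under RLE and upper quartile scaling. Under drought UBQ and UBQ5 were at log2 fold changes of 0.06 and -0.11 between the varieties, and their interactions passed at edgeR adjusted p values of 2.2e-06 and 2.7e-06.

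Secondary cell wall genes formed another group that was higher in DJ. Of 18 tested, 15 were higher, 1 was lower and 2 were not called, with a median log2 fold change of 2.21. OsCAld5H1, which makes syringyl lignin precursors, was at 30.3, 35.7 and 46.9 normalised CPM in DJ and 1.87, 1.89 and 2.35 in ZH11, a log2 fold change of 4.20 ± 0.19 (edgeR adjusted p = 1.2e-06). OsMYB61, a regulator of wall cellulose genes, was at 14.2, 19.5 and 26.1 and 2.16, 2.6 and 2.21 (3.11 ± 0.23). The xylan gene OsIRX10 differed by 2.22 ± 0.16, and every DJ library was above every ZH11 library for these 3 genes.

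KNAT7, a homeobox gene of the wall network, was at 9.4, 11.8 and 19.4 in DJ and at 0.0336, 0 and 0.0389 in ZH11, where no library exceeded 3 read pairs, the floor at or under which a fold is given as a bound and fitted values are no bounds. Against that floor its level in DJ was higher by at least 98.3-fold. The single wall gene that was lower in DJ was OsSWN3, a NAC master switch of the same network, at 0.5, 0.236 and 0.715 against 16.3, 19.1 and 20.2 in ZH11 (-5.30 ± 0.31). Under drought 11 of the 15 genes that were higher in DJ were called lower in DJ, and 8 to 13 with 1 drought library left out in turn. Of all genes called higher in DJ without stress and tested in both conditions, 31.5% were called lower under drought. The share among annotated genes alone was not counted, and lists of other kinds turned as well, as given below. Library 2 of ZH11 under drought was the highest of its group for 16 of the 18 genes, and without it 9 were called lower. For OsCAld5H1 the drought difference was -2.88 ± 0.40 and the interaction adjusted p was 5.3e-07 (edgeR).

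Loci known for plant architecture and grain traits were mostly higher in DJ, 17 of 27 tested, with 3 lower and a median log2 fold change of 1.59. PLA1, a cytochrome P450 that limits the rate of leaf initiation, was at 98.8, 75.6 and 48.6 normalised CPM in the 3 DJ libraries. In ZH11 it was at 0, 0.0946 and 0, a difference of at least 539.6-fold (edgeR adjusted p = 1.6e-06). The DJ libraries were spread widely among themselves, from 48.6 to 98.8, while 2 of the ZH11 libraries had no read.

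TAW1, which keeps inflorescence meristems indeterminate, was at 11.4, 14 and 13.8 in DJ and 0.191, 0.0541 and 0 in ZH11 (7.33 ± 0.58), and qLTG3-1, a locus for germination at low temperature, was at 27.5, 43 and 34.1 and 1.47, 1.55 and 2.17 (4.32 ± 0.22). Psd1 was at 2.83, 3.48 and 2.9 in DJ and 0, 0.0541 and 0 in ZH11, and d18, a gibberellin 3-oxidase gene of stem growth, was at least 12.6-fold higher. In the other direction, the brassinosteroid synthesis gene OsDWARF4 was at 20, 23.5 and 20 in DJ against 80.1, 69.1 and 86.8 in ZH11 (-1.89 ± 0.11), and the awn gene LABA1, which activates cytokinin, at 0.187, 0.139 and 0.422 against 12.1, 9.39 and 7.73 (-5.31 ± 0.37). Under drought 10 of the 17 higher genes were called lower in DJ, PLA1 and TAW1 among them, and 0 were called higher. Library 2 was the highest of the ZH11 drought libraries for 22 of the 27 genes, and without it 9 were called lower and 1 higher. PLA1 then stood at 423 ± 181 in ZH11 and 17.3 ± 8.22 in DJ (SD, n = 3 each).

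Genes that mark other organs were called in both directions. Of 10 tested root markers, 2 were higher in DJ, 1 was lower and 7 were not called, and their summed level was 88.6 to 108 normalised CPM in ZH11 and 137 to 214 in DJ. Of 8 tested panicle and anther markers, TAW1 was higher, 2 were lower and 5 were not called, and the summed levels were 46.6 to 51 and 40.1 to 42.8. The lower photosynthesis levels, the higher ribosome and wall levels and these marker levels were seen in the same 3 DJ libraries. The part of tissue makeup in the differences was not tested.

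Defence output genes were higher in DJ. PR protein genes were called higher in DJ without stress at 12 of 16 tested and lower at 0, with a median log2 fold change of 3.00, or 2.72 with genes at the floor set to their bound. The chitinase gene chi11 was at 24.8, 29.3 and 31.8 in DJ and 6.13, 4.69 and 5.87 in ZH11 (2.36 ± 0.14, edgeR adjusted p = 3.1e-06). Gns1, a beta-glucanase gene, was at 8.42, 8.91 and 16 and 1.39, 1.03 and 1.09 (3.24 ± 0.29), and the thaumatin-like gene OsPR5 at 26.4, 36.7 and 19.8 and 3.5, 4.74 and 5.76 (2.56 ± 0.26). PR5 differed by 3.22 ± 0.29. These 4 genes had measurable levels in all 6 libraries, and the varieties did not overlap at any of them.

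OsPR1a, a standard marker of defence activation, was nearly silent in ZH11, at 0.0448, 0 and 0, and at 2.46, 6.37 and 3.81 in DJ, at least 30.6-fold higher. The chitinase gene RCH10 was at least 17-fold and OsPR1b at least 15.8-fold higher, OsPR1b having no read in any ZH11 library. The levels in DJ were modest all the same, and under drought 9 of the 12 genes were called lower in DJ and 2 higher. The 9 stood with any 1 drought library left out, although library 2 of ZH11 was the highest of its group for 15 of the 16 genes tested, with a summed level of 6691 normalised CPM against 3062 and 1652. OsPR1a stood at 257 ± 164 in ZH11 and 28.7 ± 4.73 in DJ under drought (SD, n = 3 each).

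Diterpenoid phytoalexin genes were also higher in DJ without stress and lower in DJ under drought. Of 11 tested, 9 were higher in DJ without stress, 2 were not called and 0 were lower, with a median log2 fold change of 5.11, or 4.27 with bounds. OsCPS2, a cyclase at the head of the pathway, was at 17, 11 and 12.8 normalised CPM in DJ and 0.504, 0.365 and 0.292 in ZH11 (5.13 ± 0.26, edgeR adjusted p = 1.7e-06). OsCPS4, the cyclase that leads to momilactones, was at 5.48, 10.9 and 12.9 in DJ and had no read in ZH11, a difference of at least 70.9-fold. The momilactone P450 genes CYP99A2 and CYP99A3 were at least 54.1-fold and 14.9-fold higher, and the second-step synthase OsKSL4, which lies in the same gene cluster, at least 13.9-fold.

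OsDTC2, another second-step synthase, was at 7.15, 12.1 and 14.2 in DJ and 0.774, 0.433 and 0.515 in ZH11 (4.27 ± 0.33), and OsDTC1 was at least 25.7-fold higher. All 9 genes were called lower in DJ under drought, also with any 1 drought library left out. For all 11 genes library 2 was the highest of the ZH11 drought libraries, whose summed levels were 105, 379 and 83.6 normalised CPM, against 7.13, 5.57 and 3.79 in DJ. OsCPS2 was then at 29.5 ± 33.3 in ZH11 and 0.181 ± 0.125 in DJ (SD, n = 3 each), library 2 of ZH11 being far above the others, for a log2 fold change of -7.32 ± 1.09. The interaction for OsCPS2 gave an edgeR adjusted p of 3.7e-06. The wider set of terpene synthases overlaps this list and gave 12 of 14 tested higher in DJ and 1 lower without stress.

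Further defence-related genes were near the floor in ZH11. Bphi008a, described as a member of the RALF peptide family, was at 85.2, 118 and 74.5 in DJ and 0.123, 0.0541 and 0.0778 in ZH11, at least 672-fold higher. OsWRKY62, a WRKY factor of immunity, was at 33.8, 83.4 and 85.1 and 0.0673, 0.108 and 0.0389, at least 489-fold, with the first DJ library well under the others. The jacalin-related lectin gene OsJAC1 was at 12.1, 31.3 and 10.2 in DJ, with the second library the highest, and at least 129.6-fold higher than in ZH11.

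**Figure D3:**
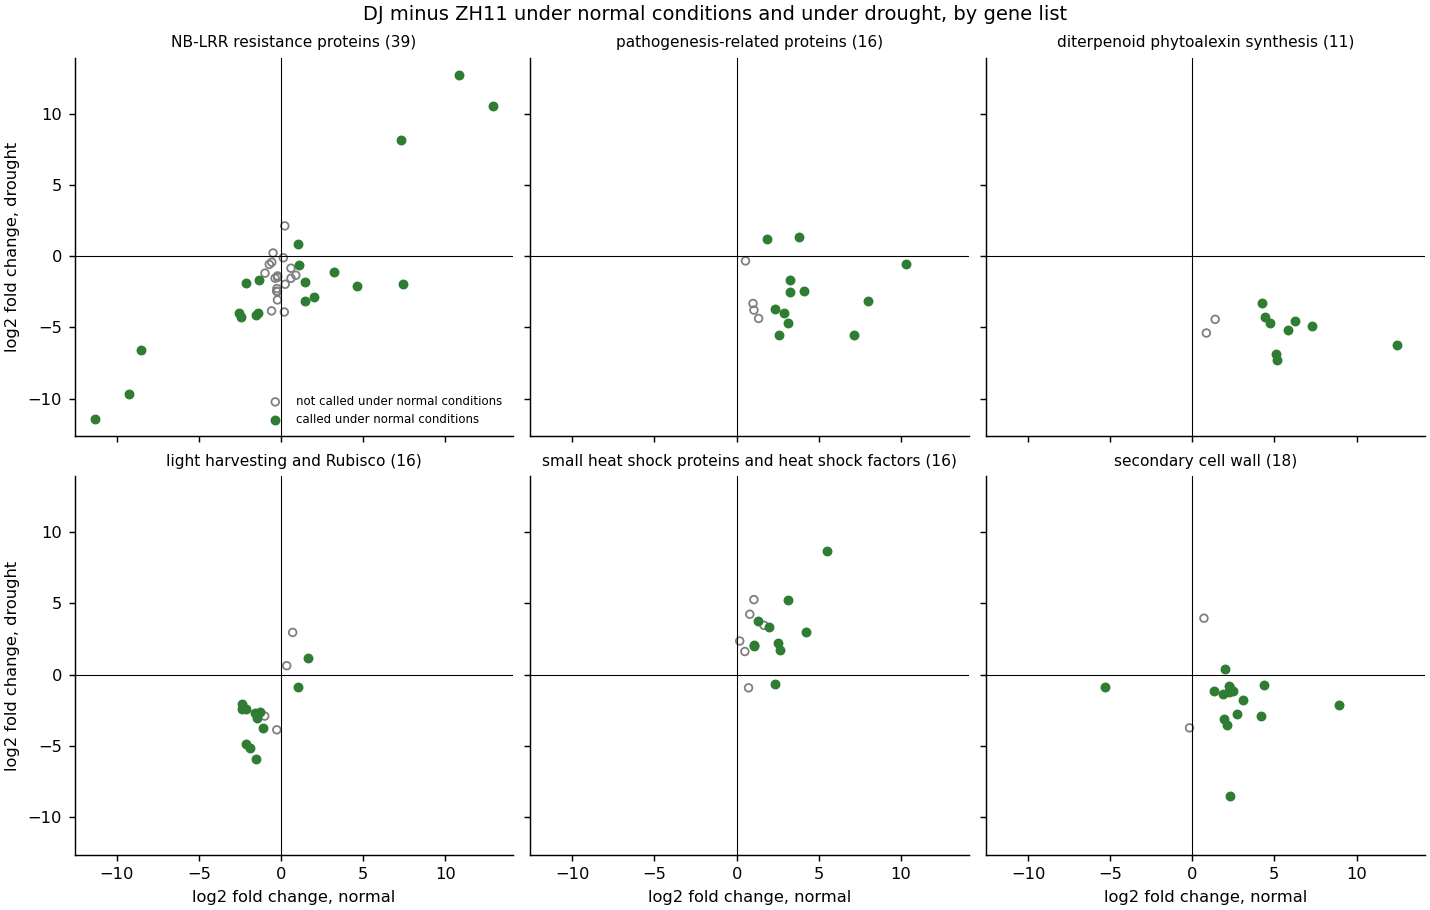
Log2 fold change, DJ minus ZH11, without stress (horizontal) and under drought (vertical) for the members of 6 gene lists tested in both conditions, with the number after each name. Filled points were called without stress; PR protein, phytoalexin and secondary wall genes lie mostly at the lower right (higher in DJ without stress, lower under drought), photosynthesis genes mostly at the lower left, chaperones mostly at the upper right, and the NB-LRR genes with the largest differences under drought at the upper right and lower left. Values for genes at the floor are fitted and are no bounds.

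Immune receptor genes were called in both directions. Of 41 NB-LRR genes tested, 12 were higher in DJ, 9 were lower and 20 were not called, with a median log2 fold change of -0.20. All 9 that were lower without stress were lower in DJ under drought too. Under drought, however, 26 of the 39 list genes tested were called lower in DJ and 4 higher. Of the 12 genes higher without stress, 3 were also called higher under drought and 4 were called lower, the last being 2 without DJ drought library 3. The blast resistance gene Pi9 was at 47.4, 42.6 and 40.4 normalised CPM in ZH11 and 6.6, 7.2 and 8.69 in DJ (-2.53 ± 0.12, edgeR adjusted p = 1.4e-06), and DEPG1 at 53.5, 47.4 and 46.2 and 9.44, 7.65 and 10 (-2.44 ± 0.12). Under drought they differed by -3.99 and -4.27.

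Pita, the receptor gene of another blast resistance locus, was at 9.69, 10.2 and 9.87 in ZH11 and 2.46, 2.41 and 1.89 in DJ (-2.14 ± 0.14) and differed by -1.86 under drought, with an interaction adjusted p of 0.23 (edgeR). Pi25, also a blast resistance gene, was at 4.56, 5.03 and 3.7 in ZH11 and had no read in any DJ library, at least 41.8-fold lower, and it had no read in the DJ drought libraries either. Pb1, a panicle blast resistance locus, was at 0.437, 0.5 and 0.904 in ZH11 and 0, 0.0278 and 0 in DJ, at least 5.78-fold lower. LOC_Os01g57270, described as an RPP13-like resistance protein, was at 2.7, 2.95 and 2.56 in ZH11 and at least 25.8-fold lower in DJ.

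In the other direction, LOC_Os11g39190, an NB-ARC domain gene, was at 42.7, 44.5 and 44.6 in DJ and 0, 0.0811 and 0 in ZH11, at least 319-fold higher. Its near neighbour by identifier LOC_Os11g39160, also of the NBS-LRR class, was at 4.42, 5.26 and 4.07 in DJ and at least 33.2-fold higher. LOC_Os01g06900, described as a Ve2-like resistance protein, was at 9.31, 16.6 and 13.8 in DJ with no read in ZH11. All 3 kept this pattern under drought. STV11, a sulfotransferase gene for resistance to rice stripe virus, turned, from -2.20 ± 0.27 without stress to 3.06 ± 0.49 under drought (interaction adjusted p = 1.4e-05, edgeR). PiPR1 was at least 4.83-fold higher in DJ without stress but was not called under drought. Receptor-like kinases, which act at the cell surface, were higher in DJ at 41 and lower at 14 of 97 tested. The share called was 56.7%, against 53.4% of annotated genes, and the median was 0.67.

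Calls without stress were also compared with those under drought across all genes. Of 5379 genes called higher in DJ and tested in both conditions, 782 were called higher in DJ under drought, or 14.5%, against 14.4% of all genes tested there. A share of 31.5% were called lower in DJ under drought, against 21.9% of all. Among the lists, 27 of 42 cytochrome P450, 22 of 41 receptor-like kinase and 13 of 19 peroxidase genes turned in this way. Of the ribosomal protein and chaperone genes higher in DJ without stress, 3 of 23 and 0 of 10 did. Among 3055 genes called lower in DJ without stress, 33.9% were lower under drought and 12.7% were higher. In all, 1818 genes were called the same way in both conditions, 19.3% of the genes called without stress and 20.7% of those called under drought, and 2082 were called in opposite ways, 22.1% of the genes called without stress. The libraries of the 2 conditions are different plants, and the drought periods of the varieties were not the same, so stress and duration cannot be told apart in the drought values.

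Light and clock genes were called in both directions. Of 17 flowering time and light genes tested, 6 were lower, 2 were higher and 9 were not called, with a median log2 fold change of -0.72. OsLHY, a core clock gene expressed around dawn, was at 71.4, 69.2 and 69.9 normalised CPM in ZH11 and 2.94, 1.89 and 2.68 in DJ, a log2 fold change of -4.83 ± 0.15 (edgeR adjusted p = 4.5e-07). Ghd7.1, a pseudo-response regulator that delays heading, was at 486, 461 and 443 and 148, 129 and 146 (-1.72 ± 0.08). OsCO3, a CONSTANS-like gene, differed by -2.69 ± 0.10. The varieties did not overlap at any of the 3.

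The photoreceptor genes phot1a and PHYA and the phytochrome partner gene OsPIL11 were lower in DJ at -2.04 ± 0.09, -1.07 ± 0.06 and -2.09 ± 0.14. All 3, and Ghd7.1 at -1.53, were also lower in DJ under drought. OsLHY and OsCO3 turned, to 1.21 ± 0.26 and 1.63 ± 0.23, with interactions at edgeR adjusted p values of 1.1e-07 and 1.9e-07. PHYA lies close to the fold threshold and was not called under upper quartile scaling, at -0.96. By its identifier phot1a lies on chromosome 12, parts of which are near-identical to parts of chromosome 11. Whether phot1a shares reads with such a copy was not tested. The hour at which each group was sampled is not given in the sources used here.

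Transport and hormone lists were mixed. Of 8 aquaporins tested, the plasma membrane gene OsPIP2;6 was higher in DJ, at 62.6, 85.5 and 86.9 against 12.5, 8.68 and 10.1 (2.91 ± 0.17), as was OsNIP1;1 (3.62 ± 0.26). OsPIP1;1 and OsPIP1;3 were lower at -1.31 ± 0.10 and -1.23 ± 0.10, and so was the silicon channel gene Lsi1, at 4.75, 3.41 and 4.18 against 20.2, 21.6 and 19.1 (-2.31 ± 0.14). Of 20 dehydrin, LEA and abscisic acid (ABA) genes tested, 14 were not called. The SnRK2 kinase gene SAPK7 and the phosphatase gene OsABIL3 were lower in DJ at -1.86 ± 0.08 and -1.20 ± 0.09. OsSalT, a salt-induced lectin gene, was at 16.2, 19.4 and 10.9 in DJ and 0.235, 0.662 and 0.36 in ZH11 (5.24 ± 0.37), and the ABA synthesis gene OsNCED4 was at least 7.81-fold higher at 0.917, 0.515 and 1.8 in DJ.

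Of 19 metal transport genes tested, 6 were higher in DJ, 3 were lower and 10 were not called. The zinc transporter gene OsZIP8 was at 85, 105 and 97.5 in DJ and 9.1, 10.1 and 8.22 in ZH11 (3.39 ± 0.11, edgeR adjusted p = 5.8e-07), and OsZIP3 was at least 54.2-fold higher. OsNAAT1, which makes the precursor of iron-chelating phytosiderophores, was at 58.3, 61.9 and 49.6 and 4.36, 3.34 and 2.31 (4.09 ± 0.22), and TOM2, an exporter of such chelators, differed by 2.94 ± 0.18. The ferric reductase gene OsFRO1 was lower in DJ, at 4.46, 1.78 and 4.16 against 42.5, 41 and 44.1 (-3.64 ± 0.29), and OsIRO3, a bHLH repressor of iron uptake genes, was lower at -1.69 ± 0.14. Both herbicide detoxification genes, CYP81A6 and HIS1, were lower in DJ at -2.96 ± 0.24 and -1.57 ± 0.18.

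ONAC023, the NAC factor the study is about, could not be compared without stress. It had no read in the 3 ZH11 libraries and in 2 of the DJ libraries, and 3 counts in DJ library 2, all under the floor of 3 read pairs (12 counts in ZH11, 6 in DJ), so no fold is given. Under drought it had 5, 19 and 20 counts in ZH11 and 121, 152 and 139 in DJ. Of the 23 other NAC factors named in the study that were tested, 11 were higher in DJ, 3 were lower and 9 were not called, a median log2 fold change of 1.08, or 0.84 with bounds. SNAC2, a stress-responsive factor, was at 345, 368 and 397 in ZH11 and 139.7, 152 and 157 in DJ (-1.31 ± 0.08). OMTN6 was lower at -1.67 ± 0.18, ONAC122 was higher at 2.58 ± 0.30 and ONAC055 was at least 22.4-fold higher in DJ.

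Among 11 tested genes that the study ties to ONAC023 as partners, targets or genes that responded to its loss, 4 were lower in DJ, 1 was higher and 6 were not called. The share called was 45.5%, against 53.4% of annotated genes. OsREM1.5, a remorin of the plasma membrane, was at 1877, 1821 and 1870.0 in ZH11 and 600.4, 611 and 646 in DJ (-1.58 ± 0.08, edgeR adjusted p = 1.9e-06). OsAPT2, an adenine phosphoribosyltransferase gene, and OsFKBP20-1b, an immunophilin gene, were lower at -2.42 ± 0.16 and -1.71 ± 0.30, and PHYA as given above. A figure legend of the study lists OsAPT2 and PHYA as genes that responded to loss of ONAC023. It reports targeting of OsAPT2 in heated inflorescences. The aquaporin gene OsPIP2;7 was at -0.98 ± 0.09, just inside the fold threshold and not called. PGL3, which encodes a chloroplast signal recognition particle subunit, was higher at 1.00 ± 0.13, and this call was lost at 0.90 without DJ library 1 and at 0.88 without ZH11 library 3.

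The named genes with the smallest p values without stress were spread over several functions. On the higher side stood the wax hydroxylase gene CYP96B5, at 90.9, 111 and 120.3 normalised CPM in DJ and 2.77, 2.74 and 2.6 in ZH11 (5.31 ± 0.13, edgeR adjusted p = 2.8e-07), the triterpene cyclase gene OsPS1 at 24.8, 26 and 33.1 and 0.28, 0.284 and 0.321 (6.55 ± 0.17), and the GTPase-activating protein gene OsGAP (3.27 ± 0.16). CYP734A6, which inactivates brassinosteroids, was at least 47.3-fold higher, and CPT1, needed for coleoptile phototropism, differed by 4.28 ± 0.21. Bphi008a, OsZIP8, Oshsp18.0-CII, RACK1B and OsCAld5H1, described above, completed the 10.

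On the lower side, SRWD1, a salt-responsive WD40 gene, was at 209, 217 and 224 in ZH11 and 48.4, 48.7 and 50.7 in DJ (-2.14 ± 0.07), and the RING finger gene OsRMT1 at 228, 215 and 181 and 22.7, 22.8 and 21.4 (-3.22 ± 0.10). The peroxidase gene POX5.1 and the cysteine synthase gene OsCAS were lower at -2.97 ± 0.10 and -3.62 ± 0.13, and under drought they were at -4.00 ± 0.46 and -3.02 ± 0.17. OsBLH1, a BEL1-like homeodomain gene, the protein phosphatase gene OsPP18 and the glutaredoxin gene OsGRX20 differed by -2.34 ± 0.08, -1.85 ± 0.06 and -1.86 ± 0.07. SRWD1, OsRMT1 and OsGRX20 were higher in DJ under drought, at 1.51, 1.25 and 1.88. OsLHY, OsGBSSII and OsPHT2;1, described above, completed these 10.

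A smaller set of genes was expressed in 1 variety only. With at least 1 CPM in all 3 libraries of one variety and no more than 3 read pairs in any library of the other, 428 genes were found in DJ only and 83 in ZH11 only. The limit of 1 CPM was taken without TMM scaling. Of the DJ-only genes, 151 had no read in any ZH11 library, and of the ZH11-only genes 51 had none in DJ. Under drought both sets were looked at again. Among the 428, 183 reached 1 CPM in all 3 ZH11 drought libraries, 61 kept the full pattern and 15 were found in ZH11 only, whereas among the 83 only 1 reached 1 CPM in all 3 DJ drought libraries and 52 kept the pattern. Of the 428, 98 stayed at or under the floor in all 10 other ZH11 libraries, which include heat and panicle samples.

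The 113 genes expressed in the same 1 variety in both conditions were spread unevenly over the chromosomes, which the identifiers name. Chromosomes 11 and 12 held 58 of them, or 51.3%, with 11.6% of the genes tested. They were 2.05% of the genes tested there and 0.254% of those on chromosomes 1 to 10. On chromosome 11, 19 were DJ-only and 13 ZH11-only, and on chromosome 12, 5 were DJ-only and 21 ZH11-only. Chromosome 6 came next with 14 and 2. The share of genes called without stress differed less, from 34.6% on chromosome 3 to 46.2% on chromosome 11. Parts of chromosomes 11 and 12 are near-identical copies of each other, and how the counting placed such reads is not given in the sources used here.

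**Figure D4:**
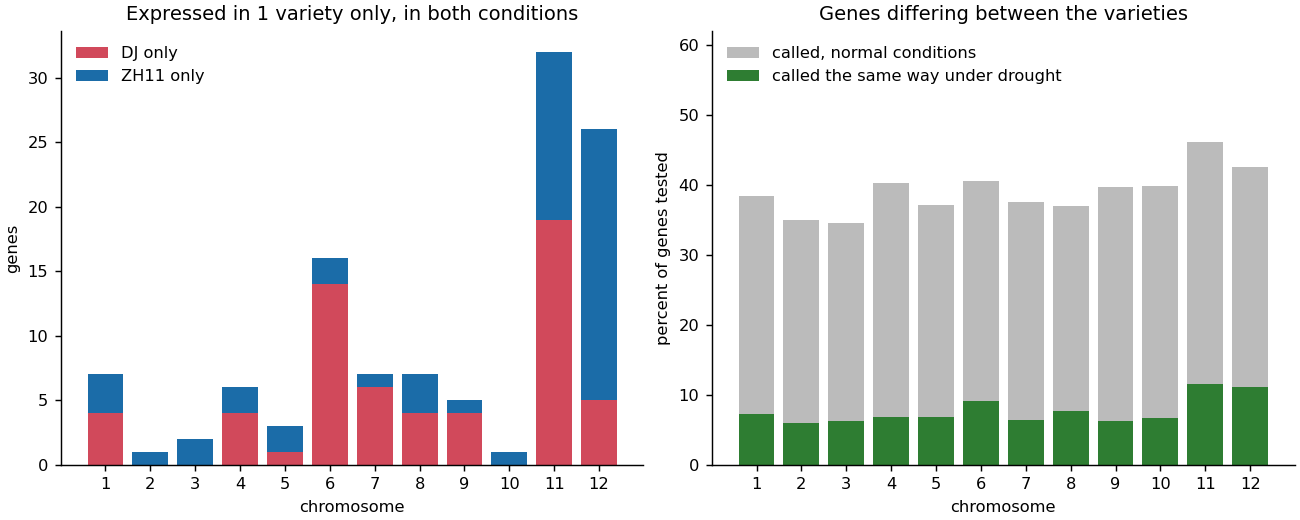
Left, the number of genes per chromosome expressed in DJ only (red) or ZH11 only (blue) in both conditions, 113 in all. Right, the percent of tested genes called without stress (grey) and, within it, called the same way under drought (green); chromosomes 11 and 12 have the highest counts on the left, 32 and 26.

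Neighbouring genes shared the pattern in 6 stretches of 4 or more consecutive tested genes called the same way in both conditions. The longest ran over 7 tested genes on chromosome 12, from LOC_Os12g12010 to LOC_Os12g12140, all lower in DJ and none annotated in the tables, with a median fitted log2 fold change of -11.15 without stress and -10.56 under drought. A stretch of 6 genes on chromosome 6, from LOC_Os06g21720 to LOC_Os06g21890, was higher in DJ. It includes LOC_Os06g21820, described as a jasmonate O-methyltransferase, at 60.3, 92.7 and 71.9 in DJ with no read in ZH11, at least 544-fold. The other 4 stretches had 4 genes each, 3 of them on chromosome 1, and the receptor genes LOC_Os01g06900 and LOC_Os01g57270 lie in 2 of these. These stretches were picked after the values were seen.

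Among described genes of this kind was LOC_Os06g23870, an acyl-CoA dehydrogenase domain gene, at 402, 348 and 379 in DJ and 0, 0.0946 and 0.0389 in ZH11, at least 2731-fold higher in DJ. It was at 277 ± 17.6 in DJ under drought and had no read in ZH11. LOC_Os11g32810, a leucine-rich repeat gene, was the converse, at 17.6, 17.1 and 16.8 in ZH11 with no read in DJ, at least 162-fold lower. LOC_Os06g33040, a transposon-related gene model, was at 24.1, 21.6 and 20.7 in DJ and at 0 in ZH11. Reads of both varieties were aligned to 1 reference genome, so a missing gene, a silent gene and a copy too different to be aligned cannot be told apart.

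Genes that the tables leave without a name or description were among those with the smallest p values. LOC_Os10g30410 was at 86.2, 95 and 82.3 normalised CPM in DJ and 0.471, 0.514 and 0.564 in ZH11 (edgeR adjusted p = 4.7e-08), and ChrSy.fgenesh.gene.28 at 185, 150.1 and 164 and 0.135, 0.203 and 0.0778 (10.28 ± 0.21). LOC_Os12g16280 was the reverse, at 235, 231 and 226 in ZH11 and 0.792, 0.681 and 0.77 in DJ (-8.28 ± 0.10), with -9.57 under drought. LOC_Os04g36062 was at 202, 191 and 189.8 in ZH11 and 9.85, 9.57 and 10.5 in DJ (-4.28 ± 0.08), but was not called under drought at -0.46.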

How the data were processed

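RNA-seq of 6 seedling libraries was compared, 3 of DJ and 3 of ZH11 under normal conditions, with 6 drought libraries of the same varieties as a second look. Per the study's methods, the authors made libraries with a stranded kit, used fastp to filter the reads and STAR to align them to the rice assembly MSU v7.0, whereas the submitters' processing notes name HISAT2, StringTie and DESeq2. The authors deposited estimated counts for 55986 gene models, as whole numbers not normalized to depth. The counting tool, its use of strand and its treatment of reads with several positions are not given in the sources used here. Read counts had been assumed in planning, whereas the deposited counts appeared to hold 2 or 4 per read pair, so counts on read pairs were an alternative.

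Genes were kept with edgeR's filterByExpr (version 4.0.16, minimum count 10), scaled by TMM within each condition and tested with the quasi-likelihood F-test and its default prior count of 0.125 for fold changes, with Benjamini-Hochberg adjustment over all genes tested (R 4.3.3). Genes were called at a fold change above 2 with an adjusted p below 0.05. Standard errors are the log2 fold change over the square root of F. The interaction was fitted on all 12 libraries. Counts of detected genes, taken on CPM without TMM scaling, were compared by an exact permutation test. Genes near 0 were set against a floor of 3 read pairs per library, which covers counting error only and rests on the inferred counts per pair. Alternatives were DESeq2 1.42.0, other scalings and filters, a test against the fold threshold, thinned counts, a replicate block and leaving out each library. On simulated counts with 200 genes changed by a log2 fold of 2, 176 were recovered without stress with 4 false calls, 167 under drought with 14, and 124 for the interaction with 4. The simulation changed far fewer genes than were called here, equally in both directions, and did not copy the counts per read pair. It therefore gives no error rate for the real comparison.

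The members and gene lists were chosen with earlier results of these data known. Named were the called members of each list with the smallest p (up to 6) with ONAC023 and its partners, the 10 named and described genes of smallest p among those higher and among those lower in DJ, annotated genes expressed in 1 variety, and up to 2 unannotated identifiers in each direction. Individual ribosomal protein genes, receptor genes and stretches of neighbours were chosen after their values were seen. No sequences were used, and 1 result on a withheld item is not reported here.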

Additional observations from a re-analysis of the deposited data

Results flagged for a closer look

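For 87 of the 124 genes named above, the variety difference under drought differed from that without stress by an edgeR interaction test (adjusted p under 0.05 and a change of more than 2-fold). Most of these genes were chosen for a small p of the difference without stress, which the interaction subtracts, so their share says nothing beyond that choice. The change is given as the log2 difference under drought minus the log2 difference without stress, and for genes at the floor in one group it is a fitted value and no bound, so the order among such genes carries no meaning. The 2 conditions are different plants, and the drought periods of the varieties were not the same. Groups of 3 libraries were not searched for single outlying libraries. Library 2 of ZH11 under drought was high for the defence and wall genes, as given above, and for lists of other kinds. It was the highest of its group for 81 of 97 receptor-like kinase, 58 of 73 cytochrome P450 and 18 of 25 nitrogen and phosphate genes. Among the chaperone genes it was the highest for 3 of 16.

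In 59 genes the change was negative. The most negative were OsJAC1 (-19.06), OsCPS4 (-18.29), PLA1 (-15.80), Bphi008a (-12.55), RCH10 (-12.47), OsCPS2 (-12.28), CYP99A2 (-12.00), CYP99A3 (-11.82), ChrSy.fgenesh.gene.28 (-11.35), OsPR1a (-10.96), KNAT7 (-10.90) and OsDTC1 (-10.80). Next came TAW1 (-10.76), OsKSL4 (-10.65), OsPR1b (-10.45), OsWRKY62 (-10.20), LOC_Os10g30410 (-9.82), OsZIP3 (-9.67), ONAC055 (-9.20), qLTG3-1 (-8.83), CYP734A6 (-8.31), OsPR5 (-7.91), OsDTC2 (-7.39) and CYP96B5 (-7.15). Between these and the middle of the range stood CPT1 (-7.13), OsCAld5H1 (-6.91), OsPS1 (-6.87), OsNAAT1 (-6.84), OsPORA (-6.35), Psd1 (-6.30), TOM2 (-6.16), OsNIP1;1 (-5.93), chi11 (-5.93), OsGAP (-5.84), PR5 (-5.58), OsZIP8 (-5.43), Gns1 (-4.76) and OsMYB61 (-4.72). Smaller negative changes were those of d18 (-4.69), OsSalT (-4.43), PiPR1 (-4.17), OsPIP2;6 (-3.57), PGL3 (-3.52), RACK1B (-3.04), LOC_Os07g42950 (-3.03), LOC_Os01g01060 (-2.96), OsIRX10 (-2.86), HSP70 (-2.84), OsGDCH (-2.61), ONAC122 (-2.60), UBQ5 (-2.17), UBQ (-1.78), OsTubA1 (-1.72), DEPG1 (-1.66), phot1a (-1.66), Pi9 (-1.29), HIS1 (-1.24), LOC_Os12g16280 (-1.14) and GADPH (-1.12).

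In 28 genes the change was positive. The most positive were OsLHY (6.20), STV11 (5.43), Lsi1 (5.25), OsRMT1 (4.63), OsSWN3 (4.60), OsSPX-MFS1 (4.53), OsCO3 (4.49), LOC_Os06g23870 (4.12) and LOC_Os04g36062 (3.99). For LOC_Os06g23870, at or under the floor in ZH11 in both conditions, the call rests on fitted values there and shows no measured change. Next came CYP81A6 (3.95), OsGRX20 (3.91), OMTN6 (3.83), SRWD1 (3.81), NYC1 (3.80), OsSAG12-2 (3.68), OsSPX-MFS3 (3.48), OsIRO3 (3.35) and SNAC2 (3.19). Smaller positive changes were those of OsPP18 (2.97), OsABIL3 (2.83), OsHSP17.7 (2.66), LABA1 (2.54), OsGBSSII (2.42), Oshsp18.0 (2.29), OsREM1.5 (1.89), OsBLH1 (1.85), OsFKBP20-1b (1.38) and OsFd-GOGAT (1.17). OsNAP, higher in DJ in both conditions, and OsHPR1, OsGS2 and OsAPT2, lower in both, were among the genes whose difference was not called as changed.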

How the results depend on the processing

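The count of 9422 genes called without stress was 9340 with DESeq2, 9427 with RLE scaling, 8322 on read pairs and 8113 after thinning to equal depth, and 5884 where the mean log2 CPM of a gene had to reach 1, so that fewer genes were tested. The 8767 genes called under drought were 5041 when tested against a log2 fold change of 1, a stricter threshold by construction. The 511 genes expressed in 1 variety were 862 with a minimum of 0.5 CPM, a looser one. Leaving out 1 library in turn gave 9259 to 9578 genes without stress, 7941 to 8948 under drought, 12110 to 12770 for the interaction (12461 with all libraries), 538 to 626 expressed in 1 variety, and a difference of 2037 to 2298 in detected genes. Of the interaction calls 5206 were positive and 7255 negative, a split of 41.8% positive that was 30.3% (3744 and 8596) with upper quartile scaling, 34.0% with no filter and 34.1% with all 19 libraries in the fit. Upper quartile scaling moved the median log2 fold change of all genes without stress from 0.07 to 0.18, and the medians of the lists kept their sign under each scaling tried.

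Libraries with the same replicate number did not deviate together, with correlations of 0.061, -0.007 and -0.006 without stress and 0.045, -0.001 and 0.010 under drought, so the numbers do not pair them. With the replicate number as a block the counts were 9135, 8489 and 12263.

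Over the 124 named genes and 1969 values under alternatives, 1957 kept direction and call, 10 lost the call, 2 gained it and 0 reversed. The lost calls were those of OsCHLH, OsHSP17.7, PHYA and PGL3, and OsPIP2;7 was called without DJ library 1 (-1.02) or ZH11 library 3 (-1.03).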

Other observations

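Larger gene families, some of whose members are named above, were counted as well. Of 73 cytochrome P450 genes tested, 42 were higher in DJ and 11 were lower, with a median log2 fold change of 1.37. Of 36 peroxidase genes, 19 were higher and 8 were lower, with a median of 1.28. Of 37 pentatricopeptide repeat genes, which act on RNA in organelles, 6 were higher, 2 were lower and 29 were not called, and neither of 2 fertility restorer genes was called. Of 140 transposon-related gene models tested, 63 were higher and 32 were lower, with a median of 0.81. All annotated genes had 36.9% higher, 16.5% lower and a median of 0.46.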
